A study of Mus musculus with 6 samples.

Results

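The CXC chemokines described here are 10 mouse genes, chosen by name and by the cells their proteins are known to attract, among the 26094 genes with a value in the series. Cxcl1, Cxcl2, Cxcl3, Cxcl5 and Ppbp form the neutrophil-attracting class, Cxcl9, Cxcl10 and Cxcl11 the T-cell-attracting class, and Cxcl12 and Cxcl16 stand outside both. Values were obtained for 9 of the 10 members. Cxcl12 is not analysed here. The cells were 4T1, an established mouse mammary carcinoma line that stands in for triple-negative breast tumours in many studies. In 3 libraries (Limch1_OE) they carried mouse Limch1 on the lentiviral vector pLVX-IRES-neo, and in 3 libraries (Vector) they carried that vector without the insert. In both groups the virus was packaged in HEK293T cells with psPAX2 and pMD2.G, antibiotic selection began 48 h after infection, and the cells grew in RPMI medium with serum. Whether a line is a clone or a pool is not stated in the labels. Whether replicate libraries came from separate infections or cultures is not in the labels, so each p reflects only how far these libraries scatter, and that scatter may be technical. LIMCH1 is an actin-associated protein that activates non-muscle myosin II. Limch1 mRNA stood at 23.96, 23.31 and 25.69 FPKM in the Limch1_OE libraries, against 0.25, 0.15 and 0.1 FPKM in the Vector libraries, as labelled.

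CXC chemokines are small proteins named for a pair of cysteines separated by a single residue near the amino terminus. Those with the tripeptide glutamate-leucine-arginine (ELR) just before the first of these cysteines bind CXCR2 and draw neutrophils, and their genes are classical targets of NF-kB in epithelial and tumour cells. CXCL9, CXCL10 and CXCL11 lack the ELR tripeptide, bind CXCR3 on activated T cells and natural killer cells, and are encoded by interferon-induced genes. CXCL12 acts through CXCR4, and CXCL16 is a transmembrane chemokine that acts through CXCR6.

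The codons that mark this division were read from the reference transcripts (GENCODE M21, build mm10). Each run below ends with the codons of the first cysteine, the residue after it and the next cysteine, and capitals mark 3 codons for ELR directly before them. All 5 neutrophil-attracting members held ELR codons there and none of the other 5 did.
Cxcl5: gccgcaacgGAGCTGCGTtgtgtttgc
Ppbp: ccatatatcGAACTGCGCtgcagatgt
Cxcl3: gtggccagtGAGCTGCGCtgtcagtgc
Cxcl1: atcgccaatGAGCTGCGCtgtcagtgc
Cxcl2: gtggccagtGAACTGCGCtgtcaatgc
Cxcl9: gtgataaggaatgcacgatgctcctgc
Cxcl10: ctcgcaaggacggtccgctgcaactgc
Cxcl11: atgttcaaacaggggcgctgtctttgc
Cxcl12: gtcagcctgagctaccgatgcccctgc
Cxcl16: ggcagtgtcgctggaagttgttcttgt
The Cxcl5 run lies in exon 2 at chr5:90759709-90759735 on the plus strand, and the Cxcl10 run in exon 2 at chr5:92348181-92348207 on the minus strand. The aligned coding sequences of Cxcl2 and Cxcl3 were identical at 89.7% of positions, those of Cxcl1 and Cxcl2 at 75.7% and those of Cxcl1 and Cxcl3 at 72.7%. How reads shared between such copies were assigned is not given in the sources used here, so the low values of Cxcl2 and Cxcl3 are uncertain. Cxcl5 and Ppbp were identical at 48.0%, and Cxcl10 and Cxcl11 at 51.8%.

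Levels are FPKM, fragments scaled by transcript length and library size, as the authors deposited them by transcript and summed here per gene. The sums over all genes lay between 421767 and 425064 FPKM in Limch1_OE cells, and between 414837 and 416242 FPKM in Vector cells. The depth is unknown, so no counting interval can be given. The 11842 genes that reached 1 FPKM in 3 or more of the 6 libraries were tested with limma (two-sided, on log2(FPKM + 1), as Limch1_OE minus Vector) and a threshold of 0.05 on the Benjamini-Hochberg adjusted p over all of them. Every log2 fold change below is on this scale, which understates the change of low genes. By this test 34.6% of tested genes differed, 20.2% higher and 14.4% lower in Limch1_OE, and in 49.1% the groups did not overlap. Of the variance, 74.9% lay on a first principal component that parted the groups, and the second, with 8.98%, parted Limch1_OE replicate 1 from replicates 2 and 3. In bulk RNA, fewer cells making a transcript and less of it per cell cannot be told apart.

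Of the 4 members above 1 FPKM in every library, Cxcl5 and Cxcl1 were higher and Cxcl10 and Cxcl16 lower in Limch1_OE, with large changes in Cxcl5 and Cxcl10 and small ones in Cxcl1 and Cxcl16. In Limch1_OE cells the neutrophil chemokine Cxcl5 was 3.33-fold higher as a ratio of mean FPKM, and the lower-expressed Ppbp and Cxcl3 were 3.15-fold and 4.42-fold higher. Cxcl1, the most abundant member in Vector, was 1.15-fold higher. Of the T-cell chemokines, Cxcl10 was 7.84-fold lower and Cxcl11 12.8-fold lower in Limch1_OE. Of the 7 tested members 4 were higher and 3 lower, where 34.6% of all tested genes were called. Ppbp and Cxcl3 passed the filter only through the Limch1_OE libraries and Cxcl11 only through the Vector libraries, so these 3 had to differ to be tested and their calls are descriptive.

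**Figure D1:**
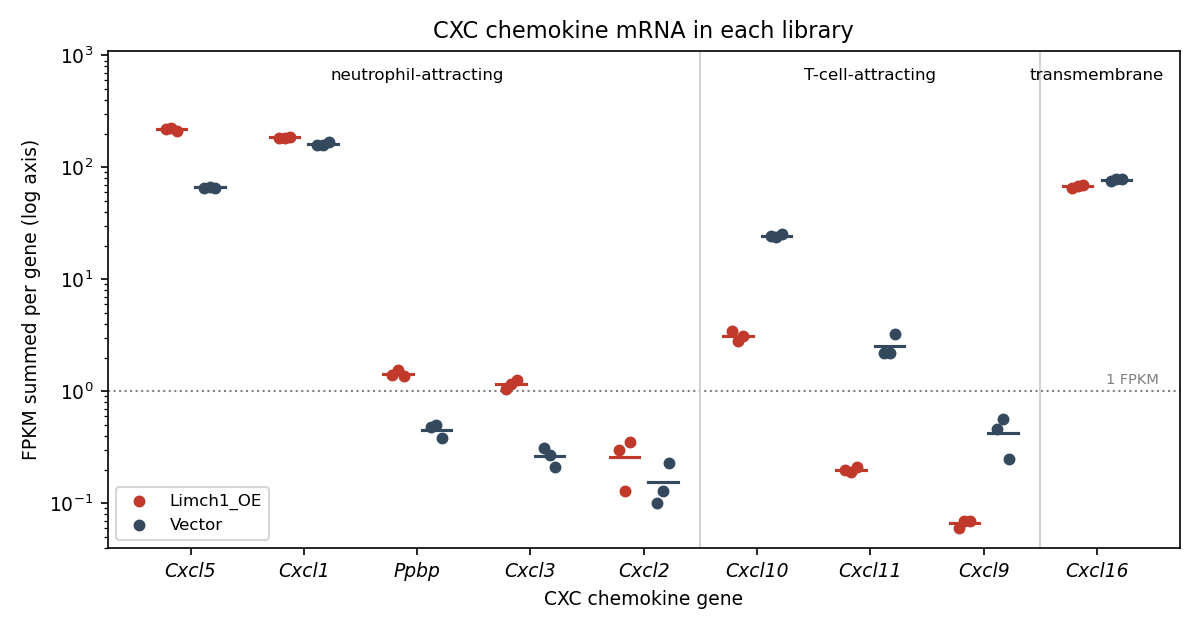
FPKM summed per gene (log axis) of the 9 members in each library, Limch1_OE left of Vector; points are libraries, short lines are group means of 3 libraries and the dotted line marks 1 FPKM. Cxcl5 sits at 213.07 to 226.52 FPKM in Limch1_OE cells, against 65.4 to 67.31 in Vector, while Cxcl10 sits at 2.84 to 3.43 in Limch1_OE and 23.82 to 25.15 in Vector.

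Among the neutrophil-attracting members, Cxcl5 (ENSMUSG00000029371, mm10 chromosome 5, 90759360 to 90761624, plus strand) encodes a CXCR2 ligand made by epithelial cells. It measured 221.68, 226.52 and 213.07 FPKM in Limch1_OE replicates 1 to 3, against 65.72, 67.31 and 65.4 FPKM in Vector replicates 1 to 3. Every Limch1_OE library was far above every Vector library, and the values within each group were close. The means were 220.4 ± 6.81 FPKM in Limch1_OE cells, against 66.14 ± 1.02 FPKM in Vector cells (SD, n = 3 each). The log2 fold change was 1.72 (SE 0.04, 95% confidence interval 1.62 to 1.82, limma adjusted p = 1.22e-08), which ranked 5th from the highest of all tested genes. The protein-coding transcript carried 94.7% of the gene's FPKM in Limch1_OE cells, against 92.0% in Vector. A retained-intron transcript was also higher in every Limch1_OE library, at 10.58, 11.76 and 12.46 FPKM, than in the Vector libraries, at 7.48, 4.25 and 4.15 FPKM.

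Cxcl1 (chromosome 5, 90891241 to 90893115, plus strand), which encodes the mouse keratinocyte chemoattractant KC, was at 182.64, 184.25 and 188.54 FPKM in Limch1_OE cells, against 157.34, 159.43 and 167.28 FPKM in Vector cells. The groups did not overlap, but the step between them was small. Means were 185.1 ± 3.05 FPKM in Limch1_OE cells, against 161.3 ± 5.24 FPKM in Vector cells (SD, n = 3 each). The log2 fold change of Cxcl1 was 0.20 (SE 0.04, 95% confidence interval 0.10 to 0.30, limma adjusted p = 0.00954), against a median of 0.04 over all tested genes. Leaving out Vector replicate 1 brought its adjusted p in limma to 0.0488. Within a library the order of the 2 main neutrophil chemokines differed between groups. The Cxcl5 to Cxcl1 ratio was 1.21, 1.23 and 1.13 in Limch1_OE and 0.418, 0.422 and 0.391 in Vector, so Cxcl5 was above Cxcl1 in each Limch1_OE library and below it in each Vector library.

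Ppbp (chromosome 5, 90768518 to 90770063, plus strand) encodes platelet basic protein, the precursor of the CXCR2 ligand CXCL7. Its single listed transcript stood at 1.39, 1.54 and 1.36 FPKM in Limch1_OE cells, against 0.48, 0.5 and 0.38 FPKM in Vector cells. All Vector libraries were below the 1 FPKM that the filter asks for. Its log2 fold change was 0.74 (with SE 0.10 and limma adjusted p = 8.65e-04), and 1.47 with a pseudocount of 0.1 in place of 1. Of 6 platelet markers 4 had a value, and they summed to 1.74 to 2.75 FPKM in Limch1_OE cells, against 1.5 to 1.92 FPKM in Vector cells, mostly from Itga2b. Gp1ba was at 0.56, 0.61 and 0.37 FPKM in Limch1_OE cells, against 0.62, 0.47 and 0.59 FPKM in Vector cells, levels like that of Ppbp itself in Vector, and its groups overlapped. Itga2b was at 2.1, 1.64 and 1.26 FPKM in Limch1_OE cells, against 0.81, 1.39 and 1.04 FPKM in Vector cells. The Itga2b groups overlapped and the gene did not pass (log2 fold change 0.36, limma adjusted p = 0.0939). Gp5 and Itgb3 were near 0. Gp5 lay between 0.02 and 0.04 FPKM in Limch1_OE cells, against 0 in each Vector library. Itgb3 lay between 0.07 and 0.08 FPKM in Limch1_OE cells, and between 0.06 and 0.11 FPKM in Vector cells.

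Cxcl3 (chromosome 5, 90786103 to 90789600, plus strand), another CXCR2 ligand gene, was at 1.05, 1.17 and 1.27 FPKM in Limch1_OE cells, against 0.31, 0.27 and 0.21 FPKM in Vector cells. The groups were apart at levels close to the filter. For Cxcl3 the log2 fold change was 0.78 (with SE 0.11 and limma adjusted p = 8.78e-04), and 1.80 with a pseudocount of 0.1. Cxcl2 (chromosome 5, 90903871 to 90905938, plus strand), which encodes macrophage inflammatory protein 2, had 0.3, 0.13 and 0.35 FPKM in Limch1_OE cells, against 0.1, 0.13 and 0.23 FPKM in Vector cells. It stayed below the filter and its groups overlapped. Without any filter on low values, the adjusted p of Cxcl2 in limma was 0.399 and its log2 fold change 0.13.

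Of the T-cell-attracting members, Cxcl10 (ENSMUSG00000034855, mm10 chromosome 5, 92346638 to 92348889, minus strand) encodes interferon gamma-induced protein 10. It measured 3.43, 2.84 and 3.11 FPKM in Limch1_OE cells, against 24.58, 23.82 and 25.15 FPKM in Vector cells. Each Limch1_OE library was far below each Vector library. The means were 3.127 ± 0.295 FPKM in Limch1_OE cells, against 24.52 ± 0.667 FPKM in Vector cells (SD, n = 3 each). The log2 fold change was -2.63 (SE 0.07, 95% confidence interval -2.79 to -2.47, limma adjusted p = 1.82e-08), ranked 48th from the lowest of all tested genes. The protein-coding transcript held 96.4% of the gene's FPKM in Limch1_OE cells, against 97.9% in Vector.

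Cxcl11 (chromosome 5, 92359544 to 92365485, minus strand) encodes the interferon-inducible T-cell alpha chemoattractant. The reference annotation, made on the C57BL/6 genome, lists it as a polymorphic pseudogene, whereas 4T1 derives from BALB/c mice. Summed Cxcl11 was 0.2, 0.19 and 0.21 FPKM in Limch1_OE cells, against 2.21, 2.19 and 3.26 FPKM in Vector cells. Vector replicate 3 was above the other Vector libraries, and no Vector library came near the Limch1_OE values. The log2 fold change was -1.55 (with SE 0.13 and limma adjusted p = 5.08e-05). It was -3.12 with a pseudocount of 0.1 and -1.05 for the most abundant transcript alone. That transcript, annotated as the pseudogene form, averaged 0.2 FPKM in Limch1_OE cells, against 1.48 FPKM in Vector cells. The protein-coding form stood at 0 in all 3 Limch1_OE libraries, against 0.58, 0.87 and 1.76 FPKM in the Vector libraries.

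Cxcl9 (chromosome 5, 92321347 to 92328079, minus strand), the monokine induced by interferon gamma, was at 0.06, 0.07 and 0.07 FPKM in Limch1_OE cells, against 0.46, 0.56 and 0.25 FPKM in Vector cells. The groups did not overlap, but all 6 values were below 1 FPKM and the gene was below the filter. With no filter on low values, its log2 fold change was -0.41 (limma adjusted p = 0.0267). Across the 9 members with a value, the groups overlapped in Cxcl2. For Ppbp, Cxcl3 and Cxcl11 the filter itself fixed that the groups lay apart, and Cxcl9 was not tested, so no share of members is set against the 49.1% of all tested genes.

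Cxcl16 (ENSMUSG00000018920, chromosome 11, 70453983 to 70459984, minus strand) encodes the transmembrane ligand of CXCR6 on T cells and natural killer T cells. It was at 65.34, 67.99 and 69.66 FPKM in Limch1_OE cells, against 75.76, 78.53 and 78.59 FPKM in Vector cells. The groups were close without overlapping. Cxcl16 had a log2 fold change of -0.20 (SE 0.05, 95% confidence interval -0.30 to -0.09, limma adjusted p = 0.0107). The protein-coding transcript held 95.4% of its FPKM in Limch1_OE cells, against 95.6% in Vector.

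By summed level, the neutrophil-attracting members reached 407.1, 413.6 and 404.6 FPKM in Limch1_OE cells, against 224.0, 227.6 and 233.5 FPKM in Vector cells. The T-cell-attracting members summed to 3.69, 3.1 and 3.39 FPKM in Limch1_OE cells, against 27.3, 26.6 and 28.7 FPKM in Vector cells. The ratio of the first sum to the second does not change when a library is multiplied by a constant factor. This ratio was 110.3, 133.4 and 119.3 in Limch1_OE and 8.22, 8.57 and 8.15 in Vector. These sums describe the chosen members and carry no test. They rest on few genes. Cxcl5 made up 46.0 ± 1.18% of the FPKM summed over the 9 members in Limch1_OE cells, against 19.8 ± 0.565% in Vector cells (SD, n = 3 each). Cxcl1 made up 38.6 ± 0.762% in Limch1_OE cells, against 48.4 ± 0.628% in Vector cells (SD, n = 3 each). Cxcl10 made up 0.653 ± 0.0673% in Limch1_OE cells, against 7.35 ± 0.181% in Vector cells (SD, n = 3 each).

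**Figure D2:**
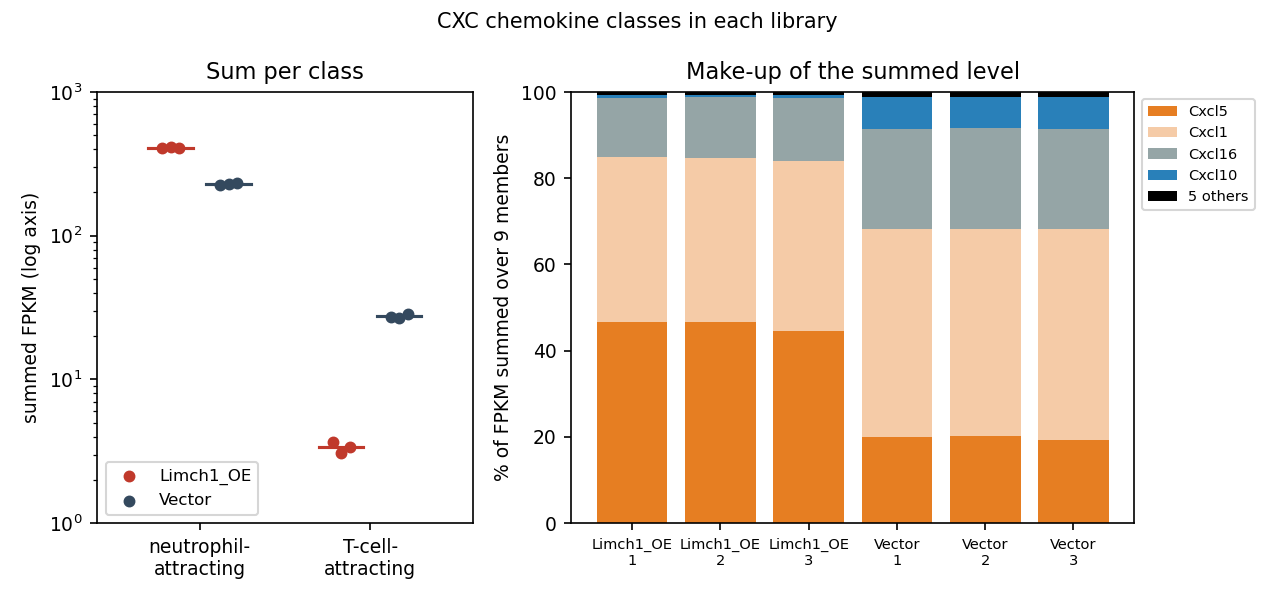
Left, FPKM summed over the 5 neutrophil-attracting and the 3 T-cell-attracting members (log axis), with a point per library, a line at the mean of 3 libraries and Limch1_OE left of Vector. Right, the percentage of the FPKM summed over 9 members held by each gene in each library; Cxcl5 holds 46.0% on average in Limch1_OE and 19.8% in Vector.

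The promoters of the members were also read. RefSeq promoter sequences (build GRCm38.p6, 250 bases before to 50 after the start) were matched for 7 of the 10 members, Cxcl1, Cxcl2, Cxcl3, Ppbp, Cxcl9, Cxcl10 and Cxcl12, and searched on both strands for the NF-kB consensus (the kB motif), an interferon-stimulated response element core (GAAA, any 2 bases, GAAA) and the STAT element GAS (TTC, any 3 bases, GAA). Shown are the 220 bases before the start of Cxcl1, Cxcl3, Ppbp and Cxcl10, picked after their values were seen. Cxcl5 had no matched sequence, and whether the motifs bear on the changes was not tested. Capitals mark kB and response element matches.
Cxcl1: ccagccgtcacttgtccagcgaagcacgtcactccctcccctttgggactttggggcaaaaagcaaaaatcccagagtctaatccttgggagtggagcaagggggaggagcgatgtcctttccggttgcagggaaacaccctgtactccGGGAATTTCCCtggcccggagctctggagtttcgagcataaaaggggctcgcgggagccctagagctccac
Cxcl3: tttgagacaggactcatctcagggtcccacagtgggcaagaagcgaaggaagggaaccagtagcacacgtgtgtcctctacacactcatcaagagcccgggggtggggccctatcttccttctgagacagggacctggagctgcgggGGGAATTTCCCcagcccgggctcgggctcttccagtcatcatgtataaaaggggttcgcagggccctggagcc
Ppbp: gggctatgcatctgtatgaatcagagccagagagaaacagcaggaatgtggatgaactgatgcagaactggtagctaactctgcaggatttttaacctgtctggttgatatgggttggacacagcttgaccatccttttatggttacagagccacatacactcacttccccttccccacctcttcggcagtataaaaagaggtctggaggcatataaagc
Cxcl10: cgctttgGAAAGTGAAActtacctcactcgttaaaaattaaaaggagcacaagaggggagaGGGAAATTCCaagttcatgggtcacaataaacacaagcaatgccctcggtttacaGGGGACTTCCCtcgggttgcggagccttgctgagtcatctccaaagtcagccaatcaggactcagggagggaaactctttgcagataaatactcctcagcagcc
These lie at chr5:90891025-90891244, chr5:90785881-90786100 and chr5:90768298-90768517 on the plus strand and at chr5:92348890-92349109 on the minus strand, in the order shown. The same kB match, GGGAATTTCC, began 71 bases before the start of Cxcl1, 97 before Cxcl2 and 73 before Cxcl3, where it overlaps a match on the other strand shifted by a single base. Cxcl10 held kB matches beginning 159 and 104 bases before its start, the second overlapping others by all but 1 base, and the response element match GAAAGTGAAA 213 bases before it. Ppbp, Cxcl9 and Cxcl12 held none of the 3 motifs in this window, and none of the 7 held GAS. Of all 32851 promoters in the RefSeq set, 8.46% held a kB match, 3.44% the response element core and 8.30% GAS. A match is a description of letters and not evidence of a factor's binding.

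The 8 chromosome 5 members lie in 2 clusters. Taken in order along the chromosome from the start of Cxcl5, Ppbp begins 9.2 kb away, Cxcl3 26.7 kb, Cxcl1 131.9 kb and Cxcl2 144.5 kb away. Cxcl5, Ppbp and Cxcl3, at the left end, had Limch1_OE to Vector ratios of means above 3, a cut set after the values were seen. Ppbp and Cxcl3 had to differ to be tested, and the low values of Cxcl2 and Cxcl3 are uncertain, so this order carries no test. The T-cell-attracting cluster begins 1562 kb from Cxcl5. Of the 5 other tested genes within 500 kb of the first cluster, 1 was higher, 2 were lower and 2 did not pass. Over all tested genes 34.6% were called. Rassf6 and Ankrd17 did not pass (log2 fold changes 0.17 and 0.09, limma adjusted p = 0.107 and 0.195). Mthfd2l, a mitochondrial folate enzyme gene, was higher (log2 fold change 0.34, limma adjusted p = 0.0417). The EGF receptor ligand genes Areg and Btc were lower, Areg at 7.557 ± 0.907 FPKM in Limch1_OE cells, against 11.87 ± 0.111 FPKM in Vector cells, and Btc at 1.637 ± 0.249 FPKM in Limch1_OE cells, against 3.947 ± 0.374 FPKM in Vector cells (SD, n = 3 each; log2 fold changes -0.59 and -0.91, limma adjusted p = 9.07e-04 and 2.98e-04). Of the 13 within 500 kb of the second cluster, 3 were higher, 1 was lower and 9 did not pass, a share called that is close to the 34.6% of all tested genes, with a median log2 fold change of -0.05. The largest change among these was 0.57 for Stbd1, which encodes a glycogen-binding protein. Sdad1, the nearest tested gene on the Cxcl9 side of this cluster, was higher (log2 fold change 0.19, limma adjusted p = 0.0293). Nup54, the nearest tested gene beyond Cxcl11, stood at -0.05 on the log2 scale without passing (limma adjusted p = 0.589). These neighbours were named after their values were seen.

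**Figure D3:**
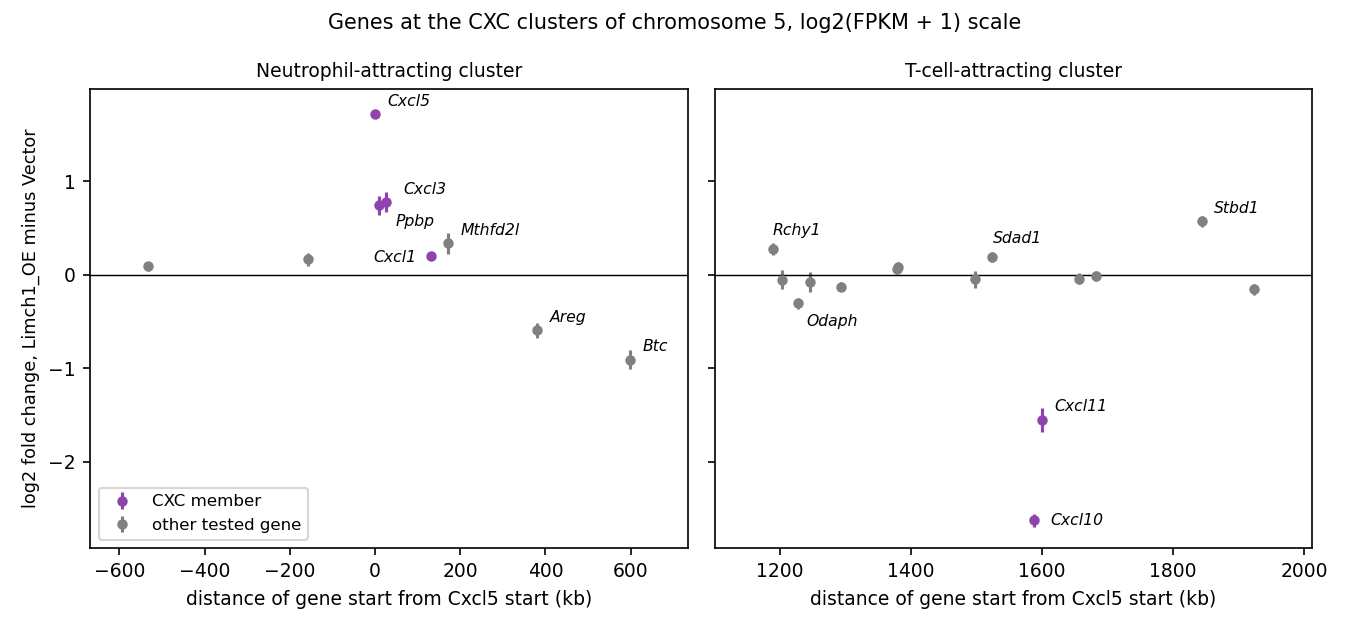
Log2 fold change (Limch1_OE minus Vector, log2(FPKM + 1) scale, bars are SE) of tested genes within 500 kb of each chromosome 5 cluster, against the distance of the gene's start from that of Cxcl5 in kb. Members and genes past the threshold are named; Cxcl5 stands at 1.72 and Cxcl10 at -2.63, Cxcl11 stands at -1.55, and the genes of the second panel that are no members lie between -0.31 and 0.57.

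Most receptor genes were low or listed at 0. Of 10 receptor genes, 7 had a value and Ackr3 alone was tested. Ackr3, an atypical receptor that binds CXCL12 and CXCL11 and removes them, was at 10.41, 11.37 and 10.36 FPKM in Limch1_OE cells, against 10.49, 10.45 and 9.46 FPKM in Vector cells, and the groups overlapped (log2 fold change 0.07, 95% confidence interval -0.08 to 0.23, limma adjusted p = 0.430). Cxcr2 was at 0 in every library but Vector replicate 2, at 0.03 FPKM. Cxcr3, the receptor of CXCL9, CXCL10 and CXCL11, was at 0, 0.05 and 0.11 FPKM in Limch1_OE cells, against 0.53, 0.61 and 0.78 FPKM in Vector cells, below the filter but without overlap. Cxcr6 lay between 0.03 and 0.10 FPKM in Limch1_OE cells, and between 0.09 and 0.17 FPKM in Vector cells. Cxcr4 is not analysed here. Among 5 other CXC chemokine genes, Cxcl14 and Cxcl17 had values, at or below 0.04 FPKM in every library.

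Of 12 genes for enzymes that act on chemokines, 6 were tested, 4 fell and none rose, where 14.4% of all tested genes were lower and 20.2% higher. Mmp9, a gelatinase known to cleave CXCL5 and CXCL12 among other chemokines, measured 24.84, 25.7 and 26.93 FPKM in Limch1_OE cells, against 93.02, 92.7 and 83.49 FPKM in Vector cells (log2 fold change -1.76 with SE 0.06 and limma adjusted p = 6.38e-08). Padi2, which encodes a peptidylarginine deiminase, fell by 0.83, Furin by 0.21 and Mmp14 by 0.14. With quantile normalization Furin and Mmp14 did not pass, at limma adjusted p = 0.0535 and 0.224. Adam10 and Adam17, which encode the proteases that release CXCL16 from the cell surface, had log2 fold changes of -0.02 (limma adjusted p = 0.838) and 0.07 (limma adjusted p = 0.504).

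For the pathways known to induce the neutrophil class, 33 genes of NF-kB, interleukin 1 and interleukin 17 signalling were listed and 29 tested. Of these 2 rose and 8 fell, where 20.2% of all tested genes were higher and 14.4% lower. The share called in either direction is close to the 34.6% of all tested genes, but more of the calls were lower. The median log2 fold change was -0.08, against 0.04 over all tested genes. The cytokine gene Il1a, itself an inducer of NF-kB, was at 50.33, 47.36 and 50.54 FPKM in Limch1_OE cells, against 102.53, 98.3 and 103.51 FPKM in Vector cells (log2 fold change -1.02 with SE 0.05 and limma adjusted p = 6.31e-07). The receptor gene Il17ra fell by 0.63, the adaptor gene Myd88 by 0.49 and the NF-kB inhibitor gene Tnfaip3 by 0.40. Of the 4 genes below the filter, the interleukin 1 receptor gene Il1r1 was higher in Limch1_OE without overlap. It was at 0.96, 1.1 and 0.71 FPKM in Limch1_OE cells, against 0.37, 0.15 and 0.21 FPKM in Vector cells. In Tnf, Il1rn and Il6 the groups overlapped. The members that rose were Nfkbia, which encodes the inhibitor IkB alpha (log2 fold change 0.23, limma adjusted p = 0.00908), and Nfkb2, a subunit gene (0.20, limma adjusted p = 0.0396). With each library rescaled to the same FPKM sum, or by median ratio, Nfkb2 did not pass (limma adjusted p = 0.074 and 0.0878). The subunit genes Rela (0.15) and Nfkb1 (-0.02) did not pass, at limma adjusted p = 0.278 and 0.843.

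For the pathway known to induce the T-cell class, 17 of 20 interferon genes were tested, of which 5 rose and 8 fell, where 20.2% of all tested genes were higher and 14.4% lower. The list's median was -0.11, against 0.04 over all tested genes. Usp18, an interferon-induced gene whose protein restrains interferon receptor signalling, was at 6.73, 7.62 and 7.67 FPKM in Limch1_OE cells, against 171.56, 167.74 and 175.25 FPKM in Vector cells. The groups were far apart, with a log2 fold change of -4.37. Irf7, which encodes an interferon-induced transcription factor, had -3.97 and the transcription factor gene Stat2 had -2.07, both past the threshold. The transcription factor gene Irf9 was also lower, at -1.18 (limma adjusted p = 3.19e-07). Of the 3 genes below the filter, the interferon beta gene Ifnb1 was at 0 FPKM in each Limch1_OE library, against 0.29, 0.29 and 0.34 FPKM in Vector cells. In Ifng and Socs1 the groups overlapped. The 5 that rose were the receptor genes Ifnar2 (0.76), Ifnar1 (0.35), Ifngr1 (0.23) and Ifngr2 (0.17) and the transcription factor gene Irf3 (0.34). Ifngr1 and Ifngr2 passed under none of the 3 rescalings tried, with limma adjusted p between 0.0661 and 0.0884 after sum or median-ratio scaling and of 0.0542 and 0.0532 after quantile normalization. The kinase genes Jak1, Jak2 and Tyk2 did not pass as deposited, with log2 fold changes of -0.11, 0.05 and 0.09 and limma adjusted p = 0.116, 0.672 and 0.198; with median-ratio scaling Jak1 passed at -0.15 (limma adjusted p = 0.0438).

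**Figure D4:**
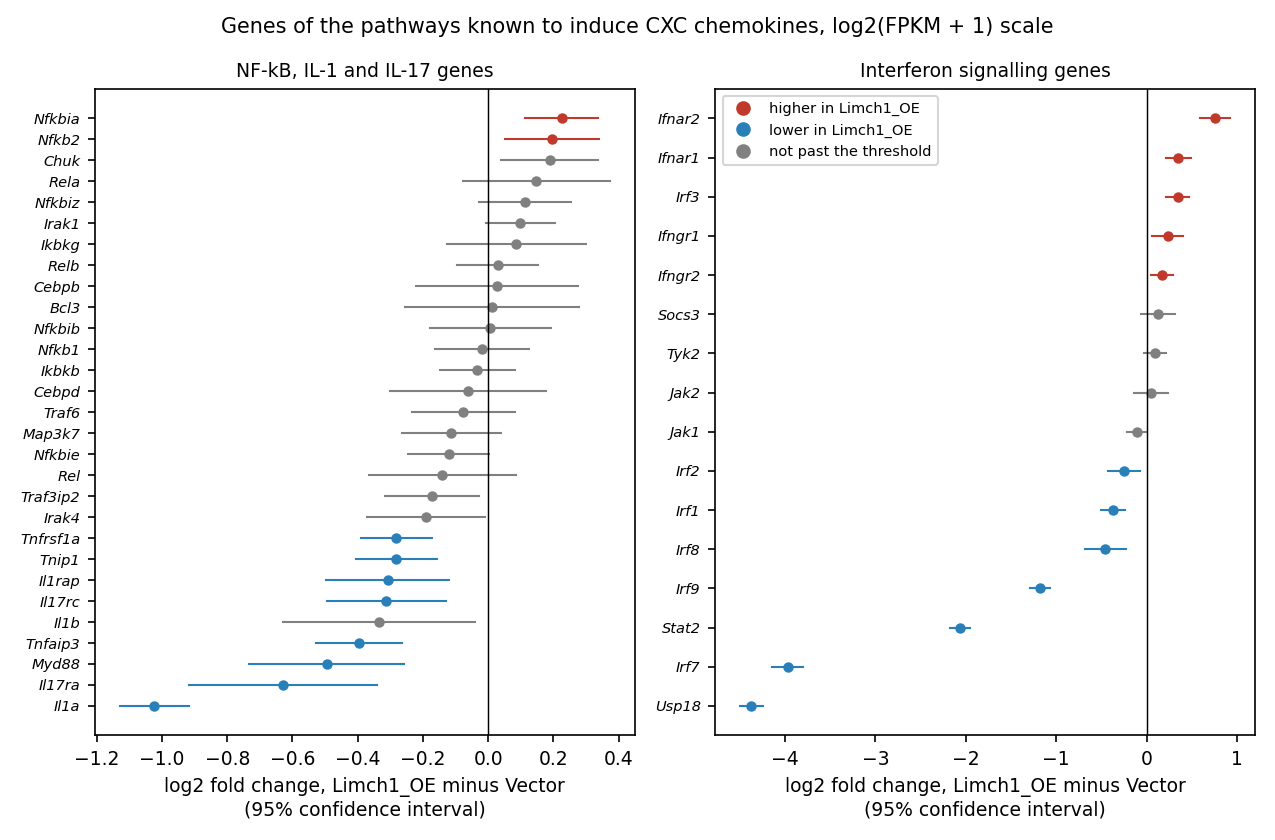
Log2 fold changes (Limch1_OE minus Vector, log2(FPKM + 1) scale) with 95% confidence intervals for 29 tested genes of NF-kB, interleukin 1 and interleukin 17 signalling and 16 of the 17 tested genes of interferon signalling, coloured by call. Il1a is lowest in the first panel at -1.02 and Usp18 in the second at -4.37.

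Of 7 genes for proteins that control the decay or stability of chemokine and other short-lived mRNAs, 2 fell and 1 rose, where 34.6% of all tested genes were called. Zfp36, which encodes tristetraprolin, a destabiliser of AU-rich mRNAs, was at 9.58 ± 0.849 FPKM in Limch1_OE cells, against 14.65 ± 0.427 FPKM in Vector cells (SD, n = 3 each; log2 fold change -0.57, limma adjusted p = 5.62e-04). Its relative Zfp36l2 fell by 0.46, and Zfp36l1 rose by 0.27. Zc3h12a, which encodes the endonuclease Regnase-1, was at -0.15 without passing (limma adjusted p = 0.078), and passed with median-ratio scaling (limma adjusted p = 0.0396).

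The genes with profiles most like those of the members that changed most were found by the smallest Euclidean distance between log2(FPKM + 1) profiles centred over the 6 libraries. Such a distance mostly reflects the difference between the groups. For Cxcl5 they were Cp (distance 0.12), Ddah2 (0.18), Cavin2 (0.23), Aqp8 (0.28) and Pmp22 (0.32), with log2 fold changes between 1.51 and 1.89. For Cxcl10 they were Gbp3 (0.16), Ddx60 (0.17), Gm4951 (0.18), Mx1 (0.20) and Ifi207 (0.26), with log2 fold changes between -2.69 and -2.52.

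Markers of the cells that these chemokines attract were low. Of 10 neutrophil markers 3 had a value, all below 1 FPKM in every library, and they summed to between 0.11 and 0.36 FPKM in Limch1_OE cells, and between 0.1 and 0.37 FPKM in Vector cells. Of 10 T-cell markers 5 had a value and 4 stayed below 1 FPKM in every library. Lck, the exception, was at 2.393 ± 0.399 FPKM in Limch1_OE cells, against 2.003 ± 0.558 FPKM in Vector cells (SD, n = 3 each, limma adjusted p = 0.355). Ptprc, the pan-leukocyte gene, was listed at 0, 0.01 and 0 FPKM in Limch1_OE cells, against 0 in each Vector library. Of the mammary epithelial markers 9 of 10 had a value, all were tested, and they summed to between 1549.7 and 1707 FPKM in Limch1_OE cells, and between 1588 and 1660.1 FPKM in Vector cells, with Epcam (-0.44), Cdh1 (-0.18) and Cldn7 (-1.65) lower and Krt7 (0.37) higher. Myeloid markers, 8 of 10 with a value and 6 below 1 FPKM in every library, summed to 35.68 to 40.21 FPKM in Limch1_OE cells, against 29.61 to 34.9 FPKM in Vector cells. Fibroblast markers, 7 of 10 with a value and 5 below 1 FPKM throughout, summed to 9.67 to 10.68 FPKM in Limch1_OE cells, against 7.69 to 7.94 FPKM in Vector cells, so both sums were higher in Limch1_OE without overlap. Each sum rested mainly on a single gene. Cd68 was at 33.13 ± 2.76 FPKM in Limch1_OE cells, against 26.65 ± 2.74 FPKM in Vector cells (SD, n = 3 each), while Cd14, the other tested myeloid marker, was lower (log2 fold change -0.28, limma adjusted p = 0.0255). Postn was at 8.333 ± 0.662 FPKM in Limch1_OE cells, against 6.0 ± 0.101 FPKM in Vector cells (SD, n = 3 each), while Fap was at 0.06, 0.04 and 0.07 FPKM in Limch1_OE cells, against 0.35, 0.23 and 0.33 FPKM in Vector cells. Endothelial markers, 7 of 8 with a value, were all below 1 FPKM. The part of these differences in the chemokine results was not tested.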

How the data were processed

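RNA sequencing of 6 libraries was analysed. Per the file headers, the authors deposited FPKM per transcript, with 2 decimals. Tools listed per the submitters' processing notes, without their roles, are StringTie 2.2.1, featureCounts 2.0.1, STAR 2.7.10 and fastp 0.23.2, and the build is mm10. The annotation release, strand use and the handling of reads matching several places have no statement in the labels or headers, and depth is unknown. Groups and replicate numbers came from the sample titles, since the genotype field counts the gene's number upward across the Limch1_OE libraries.

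Transcripts were summed per gene, and 26033 of 26094 gene identifiers matched a symbol in GENCODE M21. Tests used limma 3.58.1 in R 4.3.3 (lmFit, eBayes with trend) as described with the results, and were tested on simulated data. FPKM are not counts, so no count test was run. Marker and pathway genes without a value count as not analysed here, and 1 tested gene of the interferon list enters its counts but is not reported here. From each pathway list the text names the up to 4 largest changes past the threshold, and the other pathway and marker genes were named after their values were seen. ELR codons and motifs were searched as exact patterns. Members, lists and tests were chosen with earlier results of these data known. Alternatives covered pseudocount, filter, scaling, transcript choice, trend, replicate block and leaving out each library.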

Additional observations from a re-analysis of the deposited data

How the results depend on the processing

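Cxcl5, Cxcl1, Cxcl10 and Cxcl16 kept their direction and their call in limma under all 16 alternatives, including each of 6 fits without a library. Ppbp, Cxcl3 and Cxcl11 did so too, but they passed the filter only through the group where they are high, so their calls say nothing of stability. Without 1 library the log2 fold change lay between 1.70 and 1.75 for Cxcl5, between -2.68 and -2.58 for Cxcl10, between 0.18 and 0.22 for Cxcl1 and between -0.22 and -0.17 for Cxcl16, with adjusted p in limma up to 0.0488 for Cxcl1 (without Vector replicate 1) and 0.0407 for Cxcl16 (without Vector replicate 2). Without Limch1_OE replicate 1, which stands apart on the second component, these were 1.72, -2.68, 0.21 and -0.17. A pseudocount of 0.1 gave larger log2 fold changes for the genes near or below 1 FPKM, at 1.80 for Cxcl3, 1.47 for Ppbp and -3.12 for Cxcl11. Over all tested genes, 2388 were higher and 1706 lower, against 1900 and 2052 with median-ratio scaling, under which the median log2 fold change was 0.0045 in place of 0.04. When only a gene's top transcript was used, 997 genes were higher and 999 lower; the cause was not tested. Correlations of deviations were -0.00, 0.05 and 0.06 for same-numbered libraries, and between -0.07 and 0.03 for the other pairs. With 3 libraries per group these weak values cannot tell whether same-numbered libraries share a batch or culture, which the labels do not state. The fit with the replicate as a block called 2219 genes higher and 1589 lower. With no filter, Cxcl9 passed the threshold (adjusted p = 0.0267). Unknown depth limits the low members Cxcl2, Cxcl9, Cxcl3, Ppbp and Cxcl11 most.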

Other observations

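Ratios within a library, which multiplying that library by a constant factor does not alter, were compared for gene pairs of the same class. Cxcl5 to Ppbp was 159.5, 147.1 and 156.7 in Limch1_OE and 136.9, 134.6 and 172.1 in Vector, and these ranges overlapped. Cxcl5 to Cxcl3 was 211.1, 193.6 and 167.8 in Limch1_OE and 212.0, 249.3 and 311.4 in Vector, with no overlap. Cxcl10 to Cxcl11 was 17.2, 14.9 and 14.8 in Limch1_OE and 11.1, 10.9 and 7.71 in Vector, with no overlap. Ppbp and Cxcl3 lay below 1 FPKM in Vector and Cxcl11 in Limch1_OE, so the ratios there rest on low values. These pairs were picked after their values were seen and carry no test.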
